A study of Homo sapiens with 12 samples.

Results

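The genes described here are the hexose transporters and the gate enzymes of glycolysis in K562 cells: SLC2A1, SLC2A3 and SLC2A6, the hexokinases HK1 and HK2, the phosphofructokinases PFKP, PFKM and PFKL, the pyruvate kinase PKM and the lactate dehydrogenase LDHA. Each gene is the locus of the deposited table that carries its symbol, or, where several loci carry it (3 for HK1, 2 for SLC2A6 and 2 for PFKP), the one with the highest mean level, which gives 10 of the 38272 loci. The set was selected on the measured TNF response of HK2 and SLC2A6, so everything that compares TNF-treated with untreated libraries is a description for these 10 genes, and calls counted there support nothing. All 10 passed the filter on low values used for the fit (1 FPKM in at least 3 libraries), SLC2A6 only through its TNF-treated libraries. RNA was sequenced from K562, an established chronic myeloid leukaemia line, in 12 libraries that form 4 groups of 3. TNFSG libraries come from cells transfected with the siRNA Si623 and the GapmeR Gap01 against one lncRNA, which the labels do not name, and then given TNF at 20 ng/mL for 6 hours. TNF libraries had the mock transfection (SiCt and GapCt) and the same TNF dose and time. SG libraries had Si623 and Gap01 without TNF, and control libraries had the mock transfection without TNF, so no group is untransfected. The siRNA and the GapmeR, a gapped antisense oligonucleotide whose target RNA is cut by RNase H, were always given together, so the effect of either alone cannot be told apart. The study's design text calls the libraries of a group biological replicates and does not say how the cultures were separated, so p-values measure the spread between these libraries.

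Glucose enters most cells through facilitative transporters of the SLC2A (GLUT) family and is trapped inside by hexokinase, which phosphorylates it. Phosphofructokinase then commits the sugar to glycolysis, pyruvate kinase makes pyruvate with the release of ATP, and LDHA reduces pyruvate to lactate while restoring NAD. Each of these steps is served by isozymes from separate genes, and cancer cell lines are known for high use of the pathway. SLC2A1 (GLUT1) and SLC2A3 (GLUT3) act at the cell surface, while SLC2A6 (GLUT6) is found mainly on intracellular membranes.

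The promoter windows of HK2 and SLC2A6, the genes with the largest TNF differences, are shown because they differ in the motifs they hold. HK2 lies at chr2:74833981-74893359 on the plus strand, and SLC2A6 at chr9:133471095-133479137 on the minus strand (GRCh38, GENCODE 29). The other genes lie on chromosomes 1 (SLC2A1), 10 (HK1 and PFKP), 11 (LDHA), 12 (SLC2A3 and PFKM), 15 (PKM) and 21 (PFKL). The sequences are RefSeq windows of GRCh38.p14 that run from 250 bases before to 50 bases after an annotated start site, written 5′ to 3′ on the strand of the gene. Capitals mark matches, on either strand, to the SP1 box GGGCGG, the hypoxia response core ACGTG, the E-box CACGTG, which contains that core, and the kappaB consensus, the motif of NF-kB. RefSeq gives HK2 start sites in both windows printed here, at chr2:74833877-74834176 and chr2:74834920-74835219, and the SLC2A6 window is chr9:133479050-133479349.
HK2, first window: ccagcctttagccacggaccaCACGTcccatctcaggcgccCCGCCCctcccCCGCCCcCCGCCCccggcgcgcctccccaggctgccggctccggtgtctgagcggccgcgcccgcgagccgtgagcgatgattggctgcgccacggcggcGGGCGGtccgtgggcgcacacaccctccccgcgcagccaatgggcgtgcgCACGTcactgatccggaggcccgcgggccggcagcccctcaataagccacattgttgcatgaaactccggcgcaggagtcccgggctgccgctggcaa
HK2, second window: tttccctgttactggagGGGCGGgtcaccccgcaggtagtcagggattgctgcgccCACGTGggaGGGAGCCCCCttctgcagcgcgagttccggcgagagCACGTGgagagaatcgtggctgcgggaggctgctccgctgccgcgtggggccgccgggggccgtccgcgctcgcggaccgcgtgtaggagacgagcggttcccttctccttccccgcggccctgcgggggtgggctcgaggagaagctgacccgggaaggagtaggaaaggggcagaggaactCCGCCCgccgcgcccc
SLC2A6: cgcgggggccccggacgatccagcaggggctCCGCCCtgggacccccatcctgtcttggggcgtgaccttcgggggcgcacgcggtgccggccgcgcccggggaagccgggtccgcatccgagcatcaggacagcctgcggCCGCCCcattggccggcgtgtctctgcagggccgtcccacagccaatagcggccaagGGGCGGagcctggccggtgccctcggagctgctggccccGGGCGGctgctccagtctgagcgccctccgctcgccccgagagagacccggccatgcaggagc

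The second HK2 window held E-boxes that began 194 and 149 bases before its start site and a kappaB match that began 185 bases before it. The first HK2 window held neither and had the hypoxia response core 229 and 48 bases before the start. The SLC2A6 window held SP1 boxes 219, 109, 52 and 13 bases before its start, and no match to the kappaB consensus, ACGTG or CACGTG. Windows were present for 9 of the 10 genes, 26 windows in all, and SLC2A3 had none. The E-box occurred in windows of 2 genes, HK2 and LDHA, against 7.26% of all 35116 promoter windows of this length. The kappaB consensus occurred in windows of 4 genes and ACGTG in windows of 4 genes, against 11.3% and 21.4% of all windows. SP1 boxes occurred in windows of all 9 genes, against 45.0% of all windows, and a gene with several windows has more chances of a match than a single window. A match shows that these letters are present, and binding was not measured.

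All values are FPKM, fragments divided by locus length and by the mapped total of each library, so levels of different genes can be set side by side per length. From high to low, the order of mean levels over the 12 libraries was PFKP, LDHA, PKM, HK1, SLC2A1, PFKL, PFKM, SLC2A3, HK2, SLC2A6. The first 4 steps of this order, PFKP over LDHA down to HK1 over SLC2A1, were seen within 12 of 12 libraries, as was PFKL over PFKM. SLC2A1 was above PFKL in 11 libraries, PFKM above SLC2A3 in 10 and SLC2A3 above HK2 in 11. HK2 was above SLC2A6 in 6 of 12, those without TNF. The neighbours SLC2A1 and PFKL, PFKM and SLC2A3, SLC2A3 and HK2, and HK2 and SLC2A6 thus changed places in at least 1 library.

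Library depth, read from the whole-read steps of low values, lay between 0.879 and 1.35 times that of the median library, and the number of reads behind a value is unknown. The TNF label was checked on ICAM1, NFKBIA, CXCL8 and TNFAIP3, textbook NF-kB targets, and 4 of 4 rose in both TNF comparisons, by 3.51 to 4.40 on the log2 scale in TNF against control and by 3.43 to 4.41 in TNFSG against SG. Of the 6 erythroid markers of the K562 line, 6 were listed above 0, with summed levels of 1733 to 3939 FPKM per library. Most of each sum came from the HBG2 locus, which also carries the name HBE1, at 1378.3 to 3413.5 FPKM. HBG1 was low, at 0.481 to 3.30 FPKM. The 3 fibroblast markers summed to 65.2 to 444 FPKM in TNFSG libraries, 55.1 to 1178 in TNF libraries, 21.3 to 45.3 in SG libraries and 23.9 to 56.3 in control libraries. The highest of these sums came from COL1A2, a collagen gene, at 1098 FPKM in TNF replicate 1 and 406 FPKM in TNFSG replicate 2. Epithelial markers, among them KRT19 and EPCAM, summed to 163 to 174 FPKM in TNFSG libraries, 166 to 209 in TNF libraries, 179 to 222 in SG libraries and 195 to 240 in control libraries, and 3 lymphoid and 2 monocyte markers to at most 50.3 and 44.6 FPKM in any library. The part of these markers in the results was not tested beyond leaving out single libraries. In bulk RNA, fewer cells of a type and less RNA per cell cannot be told apart.

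Among the transporters, SLC2A6 was the lowest of the 10 genes without TNF and near SLC2A3 and PFKM with it. It had 28.4, 19.1 and 18.2 FPKM in the TNF libraries, against 0.962, 0.762 and 0.610 FPKM in the control libraries. After the targeted transfection it had 30.2, 25.1 and 24.2 FPKM in the TNFSG libraries, against 1.59, 0.766 and 1.01 FPKM in the SG libraries. Every library with TNF was above every library without it, by a ratio of means of 28.2 for TNF over control and 23.6 for TNFSG over SG. On the log2(FPKM + 1) scale the difference was 3.67 ± 0.20 (SE) for TNF minus control and 3.71 ± 0.20 for TNFSG minus SG. The size of a change from so low a level depends on the pseudocount, and with 0.1 in place of 1 it was 4.64 and 4.49. Without TNF replicate 1, the library with the high COL1A2 value, the SLC2A6 difference was 3.47, and without TNFSG replicate 2 it was 3.74.

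A second locus carries the SLC2A6 symbol. It was listed at 21.8, 19.5 and 20.2 FPKM in the TNFSG libraries and at 14.0, 6.80 and 7.49 FPKM in the TNF libraries, and at 0 in all 3 SG and all 3 control libraries. Its TNFSG values were all above its TNF values, a pattern singled out after the values were seen and not tested. With both loci summed, the log2 difference of SLC2A6 was 4.15 for TNF minus control and 4.51 for TNFSG minus SG.

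SLC2A1, the widely expressed basal glucose transporter, had 44.1, 40.6 and 45.4 FPKM in the TNF libraries, against 48.2, 46.7 and 50.4 FPKM in the control libraries. It had 30.6, 43.1 and 47.3 FPKM in the TNFSG libraries, against 48.4, 51.0 and 57.5 FPKM in the SG libraries. In both pairs the TNF-treated libraries lay below the untreated ones with no overlap, and the gaps were narrow. The log2 difference was −0.16 ± 0.14 for TNF minus control and −0.39 ± 0.14 for TNFSG minus SG, and TNFSG replicate 1, the lowest SLC2A1 value of the study, set much of the second, which was −0.20 without that library.

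SLC2A3, the high-affinity transporter, varied more between replicates than between TNF states. It had 44.2, 23.5 and 22.0 FPKM in the TNF libraries, against 47.4, 24.8 and 22.1 FPKM in the control libraries. After the targeted transfection it had 22.9, 17.1 and 15.1 FPKM in the TNFSG libraries, against 26.8, 18.5 and 18.6 FPKM in the SG libraries. Replicate 1 was highest in each of the 4 groups, at 1.42 times the mean of replicates 2 and 3 in TNFSG, 1.94 times in TNF, 1.44 times in SG and 2.02 times in control libraries. The groups overlapped in both pairs, with log2 differences of −0.06 ± 0.34 for TNF minus control and −0.20 ± 0.34 for TNFSG minus SG. SLC2A3 shares 21.5% of the 50-base words of its longest transcript with other genes, nearly all with SLC2A14, its close paralogue, so 50-base reads can be split between them. The SLC2A14 locus was listed at 33.2, 13.4 and 24.6 FPKM in TNFSG, 55.2, 30.1 and 44.2 in TNF, 36.8, 18.9 and 31.0 in SG, and 72.0, 37.8 and 24.9 in control libraries.

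**Figure D1:**
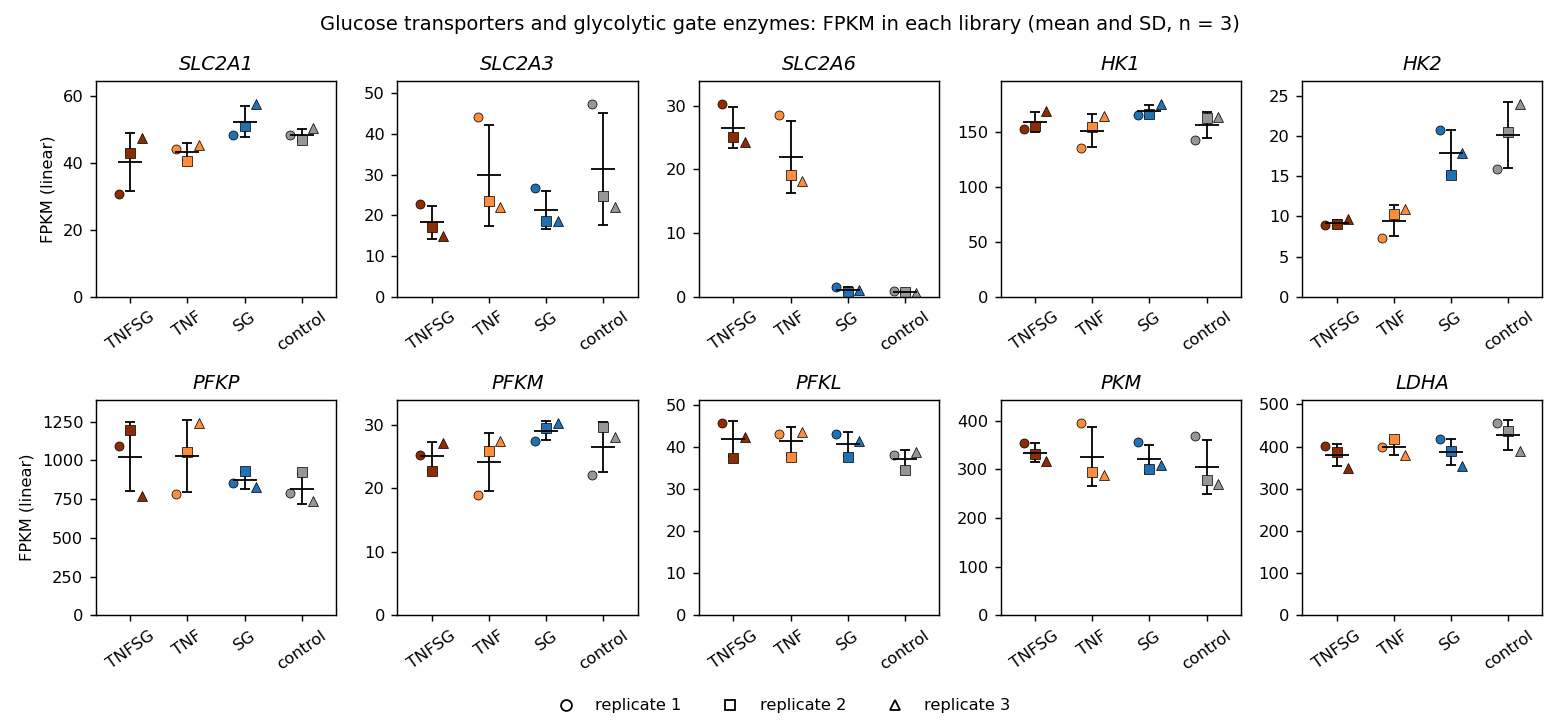
FPKM of each of the 10 genes in each of the 12 libraries (points, shaped by replicate number, on linear vertical axes from 0, 1 panel per gene), with the group mean as a horizontal line and the SD as an error bar (n = 3), for TNFSG, TNF, SG and control. SLC2A6 stands at 18.2 FPKM or more in every library with TNF and at 1.59 or less in every library without it, HK2 stands lower with TNF, and the other genes overlap or nearly overlap.

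SLC2A1, SLC2A3 and SLC2A6 together summed to 85.2 ± 1.43 FPKM in TNFSG and 95.2 ± 18.7 in TNF libraries. The same sum was 74.7 ± 3.88 in SG and 80.6 ± 13.8 in control libraries (SD, n = 3 each). Other transporters are not in this sum, among them SLC2A14, with a mean of 35.2 FPKM over the 12 libraries. Within that sum SLC2A6 made up 31.2 ± 4.32% in TNFSG and 22.9 ± 1.53% in TNF libraries, against 1.49 ± 0.517% in SG and 0.962 ± 0.114% in control libraries. SLC2A1 had 47.2% in TNFSG, 46.5% in TNF, 70.1% in SG and 61.2% in control libraries. SLC2A3 made up 21.6%, 30.6%, 28.4% and 37.9% in the same order of groups. The order of shares depends on the locus taken, since with both SLC2A6 loci summed SLC2A6 made up 44.5% and SLC2A1 38.1% in TNFSG libraries, and 29.6% and 42.5% in TNF libraries.

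HK2, the inducible hexokinase that binds mitochondria, was lower in TNF-treated libraries in both transfections. It had 7.27, 10.2 and 10.9 FPKM in the TNF libraries, against 15.8, 20.5 and 24.0 FPKM in the control libraries. It had 8.88, 9.02 and 9.64 FPKM in the TNFSG libraries, against 20.8, 15.2 and 17.9 FPKM in the SG libraries. Neither pair overlapped. The mean was 52.8% lower in TNF than in control libraries and 48.8% lower in TNFSG than in SG libraries. The log2 differences were −1.01 ± 0.18 and −0.89 ± 0.18, and they lay between −1.16 and −0.85 and between −0.99 and −0.78 when single libraries were left out. HK2 shares 8.58% of its 50-base words with other genes, chiefly the pseudogene HK2P1. The HK2P1 locus was listed at 0, 2.37 and 2.61 FPKM in TNF libraries, against 6.48, 11.6 and 8.23 FPKM in control libraries, which did not overlap. In TNFSG libraries it had 10.8, 5.19 and 2.46 FPKM, against 5.40, 7.82 and 17.4 FPKM in SG libraries, which did. The part of shared reads in the HK2 difference was not tested.

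HK1, the constitutive hexokinase, carried most of the hexokinase level throughout. It had 135, 154 and 165 FPKM in the TNF libraries, against 143, 163 and 164 FPKM in the control libraries. After the targeted transfection it had 152, 155 and 169 FPKM in the TNFSG libraries, against 166, 167 and 175 FPKM in the SG libraries. These pairs overlapped, and the log2 differences were −0.05 ± 0.09 for TNF minus control and −0.09 ± 0.09 for TNFSG minus SG. With HK1 nearly level, the share of HK2 in the hexokinase sum was 5.46 ± 0.06% in TNFSG and 5.85 ± 0.66% in TNF libraries, against 9.57 ± 1.41% in SG and 11.3 ± 1.38% in control libraries (SD, n = 3 each).

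**Figure D2:**
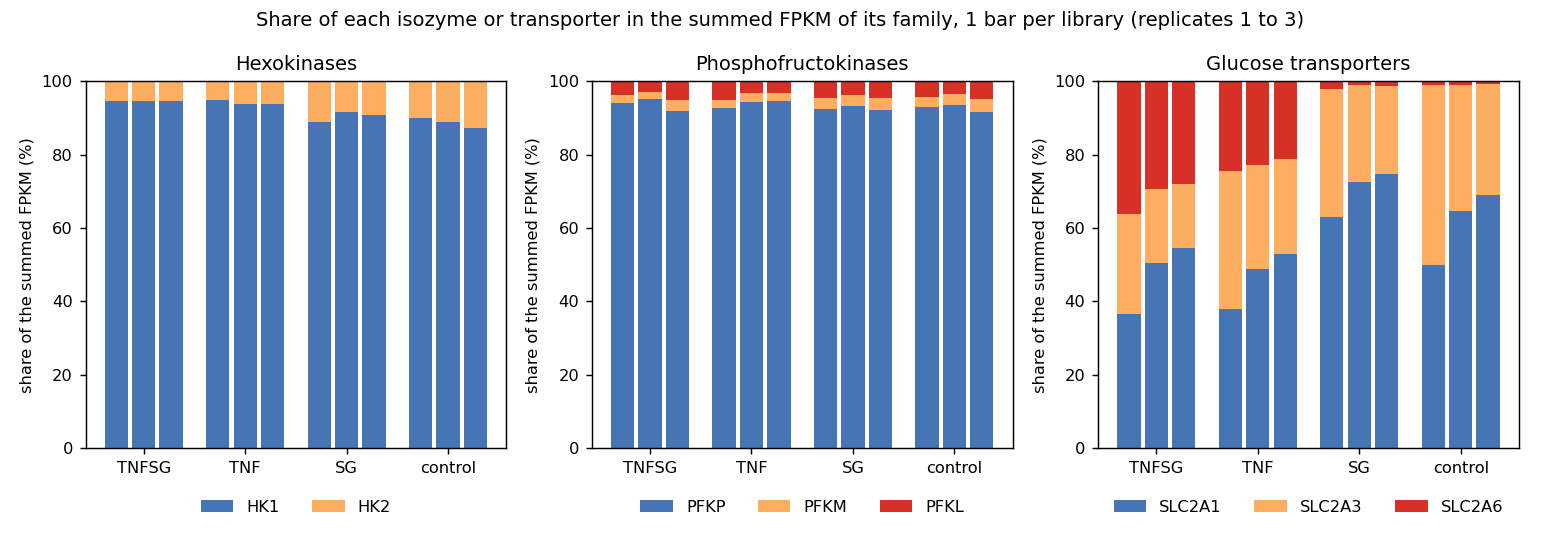
Share of each isozyme in the summed FPKM of its family (vertical axis, percent, from 0) for the hexokinases, the phosphofructokinases and the glucose transporters, as 1 stacked bar per library, replicates 1 to 3 from left to right, for TNFSG, TNF, SG and control. The transporter sum is that of SLC2A1, SLC2A3 and SLC2A6 only. SLC2A6 holds 31.2% and 22.9% of it with TNF against 1.49% and 0.962% without. Group means of the PFKP share lie between 92.6% and 93.9%. The PFKM share is 2.39 ± 0.73% in TNFSG and 2.21 ± 0.11% in TNF, against 3.09 ± 0.23% in SG and 3.02 ± 0.44% in control libraries (SD, n = 3 each).

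PFKP, the platelet-type phosphofructokinase, was the most abundant of the 10 genes. Its locus, which also carries the antisense name PITRM1-AS1, had 783, 1058 and 1244 FPKM in the TNF libraries, against 791, 926 and 737 FPKM in the control libraries. It had 1097, 1199 and 773 FPKM in the TNFSG libraries, against 852, 930 and 830 FPKM in the SG libraries. TNF-treated and untreated libraries overlapped in both pairs, and the log2 differences were 0.31 ± 0.20 for TNF minus control and 0.21 ± 0.20 for TNFSG minus SG. PFKP made up 93.6% of the phosphofructokinase sum in TNFSG, 93.9% in TNF, 92.6% in SG and 92.7% in control libraries.

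PFKM, the muscle-type isozyme, had 25.3, 22.7 and 27.0 FPKM in the TNFSG libraries, against 27.5, 29.4 and 30.3 FPKM in the SG libraries, which did not overlap. In the mock transfection it had 19.0, 25.8 and 27.5 FPKM in the TNF libraries, against 22.1, 29.6 and 28.0 FPKM in the control libraries, which did. Its log2 differences were −0.21 ± 0.15 for TNFSG minus SG and −0.14 ± 0.15 for TNF minus control, and 8.58% of its exon bases lie under SENP1 on the opposite strand, from which reads cannot be told apart where strand was not used. PFKL, the liver-type isozyme, averaged 41.9 ± 4.18 FPKM in TNFSG, 41.4 ± 3.34 in TNF, 40.7 ± 2.77 in SG and 37.1 ± 2.21 in control libraries, with overlap in both TNF pairs.

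At the end of the pathway, PKM had 396, 294 and 288 FPKM in the TNF libraries, against 369, 279 and 269 FPKM in the control libraries. After the targeted transfection it had 354, 332 and 317 FPKM in the TNFSG libraries, against 355, 301 and 308 FPKM in the SG libraries. LDHA had 398, 419 and 381 FPKM in the TNF libraries, against 457, 436 and 388 FPKM in the control libraries. After the targeted transfection it had 402, 388 and 350 FPKM in the TNFSG libraries, against 417, 388 and 355 FPKM in the SG libraries. Both genes overlapped between TNF-treated and untreated libraries in both transfections. The log2 differences of PKM were 0.09 ± 0.15 for TNF minus control and 0.06 ± 0.15 for TNFSG minus SG, and those of LDHA were −0.09 ± 0.09 and −0.02 ± 0.09. LDHA shares 10.1% of its 50-base words with other genes, the largest part with the pseudogene LDHAP4.

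At an adjusted p of 0.05 over all 32866 loci tested with limma, 1 of the 10 genes rose (SLC2A6) and 1 fell (HK2) in TNF against control, where 1.45% of all loci were called, and the same 2 genes were called in TNFSG against SG, where 1.64% were. These counts describe the choice of the genes, and nothing is read from them. The HK2 call in TNF against control was lost without TNF replicate 1, TNF replicate 2, control replicate 2 or control replicate 3, and the HK2 call in TNFSG against SG was lost without any 1 of its 6 libraries. Group values did not overlap for 3 of the 10 genes in TNF against control (SLC2A6 above, HK2 and SLC2A1 below), beside 15.6% of all loci, and for 4 in TNFSG against SG (SLC2A6 above, HK2, SLC2A1 and PFKM below), beside 18.2%. The median log2 difference of the 10 genes was −0.05 in TNF against control and −0.06 in TNFSG against SG, against −0.02 and −0.03 over all loci.

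**Figure D3:**
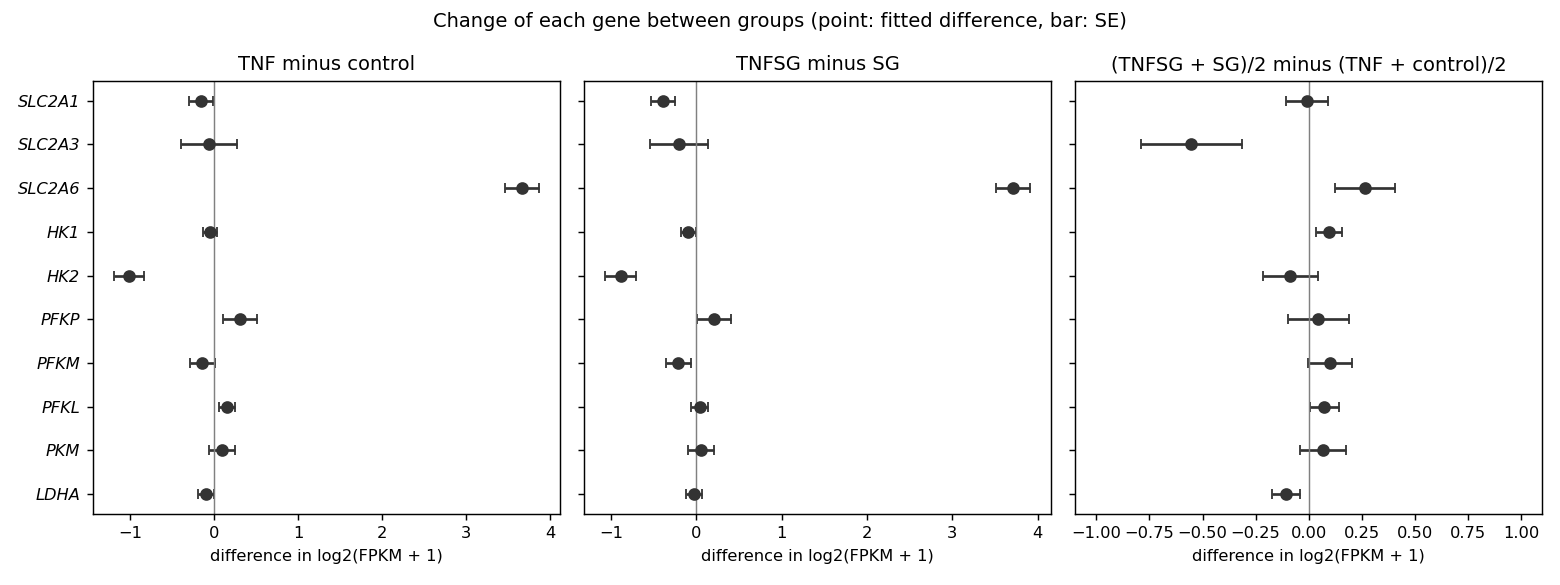
Log2 difference of each gene on the log2(FPKM + 1) scale (horizontal axis) with its standard error, in TNF against control, TNFSG against SG and the targeted against the mock transfection averaged over both TNF states. SLC2A6 lies at 3.67 and 3.71 and HK2 at −1.01 and −0.89 in the TNF comparisons, and SLC2A3 lies lowest, at −0.55, in the transfection comparison.

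The other question of the design is whether the targeted transfection altered these genes. The rule that chose the genes did not use this comparison, but earlier results of these data were known when the genes were chosen. The level of the targeted lncRNA was not checked here, since the labels do not name it. At an adjusted p of 0.05 in limma none of the 10 genes passed between SG and control, between TNFSG and TNF or in the average of both, where 0.170%, 0.128% and 1.11% of all loci were called. At an unadjusted p under 0.05, 0, 0 and 1 of the 10 genes were found, beside 9.86%, 9.11% and 14.6% of all loci, and the 1 was SLC2A3. SLC2A3 averaged 18.4 ± 4.07 FPKM in TNFSG libraries, against 29.9 ± 12.4 FPKM in TNF libraries, and 21.3 ± 4.74 FPKM in SG libraries, against 31.4 ± 13.9 FPKM in control libraries (SD, n = 3 each). The groups overlapped in both pairs. Averaged over both TNF states the log2 difference of SLC2A3 was −0.55 ± 0.24 (95% interval −1.09 to −0.02, limma adjusted p = 0.325). This result depends on the fit. With the replicate number as a block the SE was 0.09 and SLC2A3 was called (limma adjusted p = 0.0259), though the labels state no pairing. SLC2A14, whose reads cannot be fully separated from those of SLC2A3, had −0.71 ± 0.31 (limma adjusted p = 0.337) without the block. It was not called with the block either.

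For SLC2A6 the averaged difference between the transfections was 0.26 ± 0.14 (95% interval −0.05 to 0.58, limma adjusted p = 0.440), and for HK2 it was −0.09 ± 0.13 (−0.37 to 0.20, limma adjusted p = 0.812). The remaining 7 genes had differences between −0.11 ± 0.07 (LDHA) and 0.10 ± 0.10 (PFKM), with limma adjusted p-values of 0.508 to 0.982. Their 95% intervals all held 0, the widest for PFKP (−0.28 to 0.36) and the narrowest for HK1 (−0.04 to 0.23). The median of the 10 genes was 0.06 and that of all loci was 0.09. Over all loci 195 rose and 170 fell in this comparison, but 109 rose and 376 fell after median-ratio scaling and 86 and 351 after quantile normalization. Median-ratio scaling also turned the small positive differences of PFKP, PFKL and PKM negative. Group values did not overlap for HK1 alone in SG against control, where SG was higher, beside 14.9% of all loci, and for 0 genes in TNFSG against TNF, beside 14.8%.

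Whether the TNF difference depended on the transfection was tested as an interaction, in which 0 of the 10 genes passed the threshold or had an unadjusted p under 0.05, beside 0.00913% of all loci called and 3.75% at that unadjusted p. The interaction was 0.12 ± 0.26 for HK2 (95% interval −0.45 to 0.70) and 0.04 ± 0.28 for SLC2A6 (−0.59 to 0.67), with limma adjusted p-values of 1.00. Both intervals hold 0 and reach past 0.4 in both directions. With both SLC2A6 loci summed, the interaction of SLC2A6 was 0.361.

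Among 12704 named loci with a mean of at least 5 FPKM, the levels most like those of SLC2A6 over the 12 libraries were those of NINJ1 (Pearson r = 0.998), IRAK2 (0.997), BCL3 (0.995), ICAM1 (0.995) and CD83 (0.995). NINJ1 encodes a membrane protein of lytic cell death, IRAK2 a kinase of interleukin-1 and Toll-like receptor signalling, BCL3 an atypical IkB protein, ICAM1 an adhesion molecule and CD83 a surface glycoprotein of activated immune cells. The levels most like those of HK2 were those of GEMIN5 (0.986), SLC25A42 (0.980), TFAP4 (0.974), SURF6 (0.968) and DOLPP1 (0.968). GEMIN5 is part of the SMN complex that assembles spliceosomal RNPs, and SLC25A42 is a mitochondrial coenzyme A carrier. TFAP4 is a transcription factor, SURF6 a nucleolar protein and DOLPP1 a dolichyl pyrophosphate phosphatase. Within the 10 genes, HK2 and SLC2A6 ran opposite to each other (r = −0.937), which the choice of the set on their TNF responses fixed in advance. HK1 ran with PFKM (0.927) and against SLC2A3 (−0.801). These correlations are over 12 libraries of 4 groups, whose points share their library and TNF state, and are given without a test.

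Replicate 1 stood apart for several of the genes regardless of group. SLC2A3, SLC2A6 and PKM were highest in replicate 1 in all 4 groups, a pattern shown by 5.11% of all loci tested, and HK1 was lowest in replicate 1 in all 4 groups, as were 5.23% of loci.

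The rest of the pathway was read from 5 lists with 79 genes, of which 64 were measured well enough to test: other glycolysis enzymes (13 of 17), other sugar and lactate transporters (9 of 14), regulators of the gates (14 of 17), branches for pentose, glycogen, hexosamine and serine (15 of 16) and hypoxia-response genes outside glycolysis (13 of 15). With limma, 1 of the 64 rose and 0 fell past the threshold in each TNF comparison, and 10 (TNF against control) and 8 (TNFSG against SG) had an unadjusted p under 0.05, beside 11.2% and 11.4% of all loci. The gene was EGLN3, a prolyl hydroxylase that marks hypoxia-inducible factor for degradation and is itself induced by hypoxia. It had 23.4, 23.0 and 24.5 FPKM in the TNF libraries, against 16.7, 14.0 and 16.2 FPKM in the control libraries. After the targeted transfection it had 18.8, 22.4 and 24.6 FPKM in the TNFSG libraries, against 13.2, 14.2 and 14.7 FPKM in the SG libraries. Neither pair overlapped. EGLN3 rose by 0.57 ± 0.10 in TNF against control (limma adjusted p = 0.0294) and by 0.60 ± 0.10 in TNFSG against SG (limma adjusted p = 0.0203). Both calls are fragile, since omitting a single library ended them in 5 of 6 cases in each comparison, with limma adjusted p up to 0.117 and 0.0883. They held without control replicate 1 and without TNFSG replicate 1. The 5 lists were chosen with earlier results of these data known, so their p-values, here and below, are not those of an independent choice. None of the other glycolysis enzymes, transporters, gate regulators or branch enzymes passed the threshold in either TNF comparison, with 6 and 5 of them at an unadjusted p under 0.05. Among these was the glycolysis enzyme ENO3, at 0.59 ± 0.23 in TNF against control and 0.58 ± 0.23 in TNFSG against SG (limma adjusted p = 0.359 in each). With the replicate number as a block ENO3 was called in both comparisons (limma adjusted p = 0.0126 and 0.0134).

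Between the transfections, 0 of the 64 passed in SG against control and 0 in TNFSG against TNF, with 7 and 8 at an unadjusted p under 0.05, beside 9.86% and 9.11% of all loci. In the average over both TNF states 1 rose and 1 fell, with 14 at an unadjusted p under 0.05, beside 1.11% of all loci called and 14.6% at that unadjusted p. G6PC3 is the widely expressed glucose-6-phosphatase, which removes the phosphate that hexokinase adds to glucose. It had 34.8, 32.9 and 30.0 FPKM in TNFSG libraries, against 25.8, 25.6 and 24.6 FPKM in TNF libraries. Without TNF it had 37.0, 33.0 and 31.8 FPKM in SG libraries, against 25.2, 25.2 and 25.6 FPKM in control libraries. It rose by 0.38 ± 0.05 on the log2 scale (limma adjusted p = 0.0134) and passed in 12 of 12 cases when a single library was omitted, but missed the threshold without the variance trend of limma (adjusted p = 0.0575). GFPT1, the first enzyme of the hexosamine branch, had 7.91, 7.15 and 6.39 FPKM in TNFSG libraries, against 9.72, 10.5 and 9.43 FPKM in TNF libraries, and 7.82, 7.73 and 6.34 FPKM in SG libraries, against 9.65, 11.6 and 10.5 FPKM in control libraries. Neither gene overlapped between the transfections. GFPT1 fell by 0.45 ± 0.08 (limma adjusted p = 0.0343), and omitting a single library ended the call in 11 of 12 cases, with limma adjusted p up to 0.0931, while it held without control replicate 1. In the interaction 0 of the 64 passed, with 1 at an unadjusted p under 0.05.

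**Figure D4:**
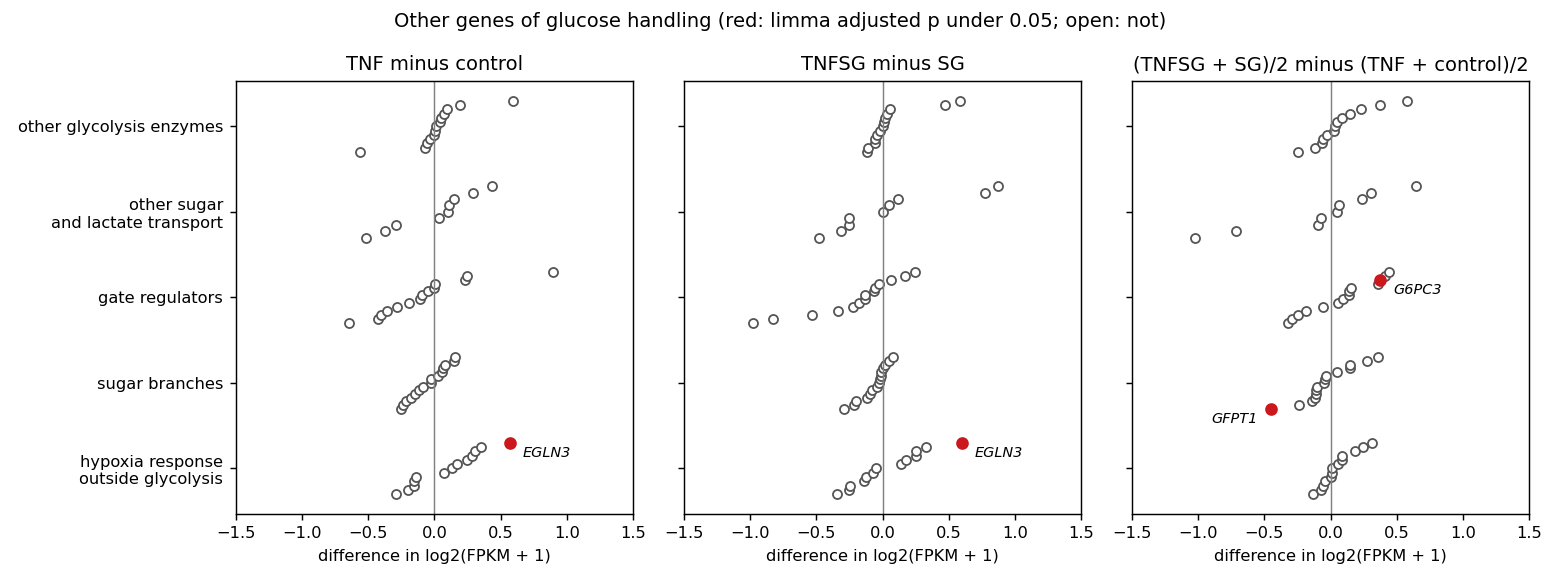
Log2 difference of each tested gene of the 5 pathway lists (points, horizontal axis on the log2(FPKM + 1) scale, 1 row per list) in TNF against control, TNFSG against SG and the targeted against the mock transfection averaged over both TNF states, with filled, named points past a limma adjusted p of 0.05. EGLN3 stands out in the TNF panels, at 0.57 and 0.60, and G6PC3 and GFPT1 in the transfection panel, at 0.38 and −0.45.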

How the data were processed

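Expression in 12 K562 libraries was read from the FPKM table that the authors deposited, in which every library has its own column. Per the submitters' processing notes, Bowtie2 2.2.9, TopHat2 2.0.14 and Cufflinks were used with build hg38, and the version of Cufflinks is not given in the sources used here. Per the labels' protocols, reads were single and 50 bases long. The deposited FPKM values are scaled per length and per mapped fragment, so no count test was run.

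FPKM values were put on the log2(FPKM + 1) scale. Loci that reached 1 FPKM in 3 or more libraries entered the model, run in limma 3.58.1 under R 4.3.3 on the whole set of 12 libraries (1 mean per group, 8 residual degrees of freedom, variance trend, two-sided, Benjamini-Hochberg over 32866 loci). Samples were grouped by the treatment label. The members, lists and motifs were chosen with earlier results of these data known. Genes named beside the members are those past the threshold in a list (up to 4 per list and comparison), in the main fit or with the replicate block. Also named are the 5 loci most correlated with HK2 and with SLC2A6, and the 4 checks of the TNF label. Isozyme shares are shares of the family's summed FPKM in each library, 1 locus per gene. Shared 50-base words and exon overlap come from GENCODE 29, promoters from RefSeq. The model was also run on simulated independent normal values, without a replicate effect, pseudocount or filter. That run cannot show how the fit behaves where these matter, and no result here rests on it. Alternatives were a replicate block, pseudocounts, filters, scalings, no trend, a fit of the compared groups alone, summed loci and each library left out. Python 3.11.15, numpy 2.4.6, pandas 2.3.3 and matplotlib 3.10.9 were used.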

Additional observations from a re-analysis of the deposited data

How the results depend on the processing

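Counts of members called with TNF follow from how the genes were chosen and are values only. The 2 members called in TNF against control became 1 when the fit held the compared groups alone and 1 to 2 when single libraries were left out. The 2 in TNFSG against SG became 1 without a filter, with median-ratio scaling, without the variance trend and in the fit of the compared groups alone, and 1 whichever library was left out.

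Of the pathway lists, 1 gene was called in TNF against control, but 4 with a filter at 5 FPKM, 0 without the variance trend, 0 in the fit of the compared groups alone and 0 to 1 with a library left out. The 1 called in TNFSG against SG became 2 with the filter at 5 FPKM, 0 in the fit of the compared groups alone and 0 to 1 with a library left out. In SG against control 0 became 1 with the filter at 5 FPKM. The 2 called between the transfections on average became 0 without the variance trend and 1 to 2 with a library left out.

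The signs of small differences were not stable. Between the transfections on average, median-ratio scaling gave −0.0351 for PFKP, −0.0044 for PFKL and −0.012 for PKM, and leaving out libraries gave −0.071 to 0.0818 for SLC2A1 and −0.0475 to 0.139 for PFKP. The interaction of SLC2A6 was −0.146 and −0.032 with pseudocounts of 0.1 and 0.5 and −0.0818 to 0.236 with a library left out, and that of HK2 −0.0384 to 0.277. With both SLC2A6 loci summed, the interaction of SLC2A6 was 0.361, its highest value over the settings. Its averaged difference between the transfections was then 0.423, also the highest, and neither was called. Quantile normalization moved the median of all loci in SG against control to −0.03, against 0.08 as deposited. The cause was not tested in any of these.

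The labels number the replicates without saying that a number marks a shared culture or day. Deviations of libraries with the same number correlated at 0.0065 to 0.138 over 18 pairs (median 0.0225), all positive, and those with different numbers at −0.0932 to 0.0425 (median −0.0165). Only the pair of control replicate 1 and TNF replicate 1, at 0.138, exceeded 0.1. The main fit did not pair the libraries, since the labels state no pairing. Any shift shared by libraries of the same number therefore stays in the error of the main fit. Whether libraries with the same number share a culture or day was not tested. With the replicate number as a replicate block, 592 loci rose and 239 fell in TNF against control, against 387 and 91 without it, and 569 rose and 369 fell between the transfections on average, against 195 and 170. In the same fit 2 pathway genes, ENO3 and EGLN3, were called in each TNF comparison. Between the transfections on average, GAPDH was called beside G6PC3 and GFPT1, at −0.24 ± 0.05 (limma adjusted p = 0.0432). Of the members 1 was called there, SLC2A3 (limma adjusted p = 0.0259).

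The depth behind each FPKM value is unknown, so the values carry no counting interval, and the spread is estimated from 3 libraries a group.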
